A study of Oryctolagus cuniculus with 8 samples.

Results

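The proteins that dock, prime and fuse synaptic and secretory vesicles are encoded here by 55 genes, which were chosen by the words of the array's probe descriptions (synaptotagmin, synapsin, syntaxin, synaptosomal-associated, vesicle-associated membrane protein, synaptophysin, synaptogyrin, synaptic vesicle, complexin, exocyst complex, N-ethylmaleimide-sensitive, regulating synaptic membrane, secretogranin and chromogranin). They hold 125 of the 43603 probes of the array, and 55 of its 23364 genes or transcripts. RNA came from the whole forebrain of preterm New Zealand rabbit pups, delivered surgically on gestational day 29 of 32 and sampled on postnatal day 14. The high-dose group (4 samples) received dexamethasone, a synthetic glucocorticoid, by intramuscular injection at 0.25 mg/kg, 2 doses a day for no more than 5 days, and the control group (4 samples) received saline vehicle. The labels name no genotype or transgene, and all pups of both groups were preterm and fed formula, so no term-born group enters any comparison. The labels call the samples biological replicates, but do not say whether each was 1 pup.

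In a nerve terminal, vesicles are held at the active zone by scaffold proteins such as the RIMs, and fusion is driven by a bundle of SNARE proteins, made of a syntaxin, a SNAP protein and a vesicle-associated membrane protein. Synaptotagmins sense calcium and trigger this step, complexins clamp it, and the ATPase NSF takes the spent bundles apart with its attachment proteins. Synapsins tether vesicles in reserve, the exocyst tethers carriers to the plasma membrane, and granins are cargo of dense-core vesicles, which release peptides.

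The array reads each gene with oligonucleotides of 60 bases, and several members are read by sets of nearly the same oligonucleotide, so the probes of the genes on which the results turn are shown first. Synaptotagmin 1, the main calcium sensor of fast release, has 5 probes at chr4:58595706-58595772 of the build oryCun2, on the plus strand, and capitals mark the 53 bases that all of them share.
SYT1 A_04_P058517: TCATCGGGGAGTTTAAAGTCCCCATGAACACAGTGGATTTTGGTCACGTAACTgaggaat
SYT1 A_04_P058518: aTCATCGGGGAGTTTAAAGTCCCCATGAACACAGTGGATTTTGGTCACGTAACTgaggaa
SYT1 A_04_P058519: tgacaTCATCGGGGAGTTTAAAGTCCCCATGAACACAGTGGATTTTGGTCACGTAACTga
SYT1 A_04_P058520: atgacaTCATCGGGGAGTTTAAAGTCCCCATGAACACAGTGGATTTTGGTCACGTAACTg
SYT1 A_04_P058521: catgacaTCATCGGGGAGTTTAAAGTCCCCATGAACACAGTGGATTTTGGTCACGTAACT

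Secretogranin V (SCG5, also called 7B2), a chaperone of the peptide-processing enzyme PCSK2, has 5 probes on the plus strand of chromosome 17 between positions 37842266 and 37848451 of oryCun2. Each of these matches a genomic span of 6182 bases, far beyond its own length, so each lies across a splice junction. Capitals mark the 56 shared bases.
SCG5 A_04_P086677: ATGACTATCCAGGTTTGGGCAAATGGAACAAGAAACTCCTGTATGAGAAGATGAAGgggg
SCG5 A_04_P086678: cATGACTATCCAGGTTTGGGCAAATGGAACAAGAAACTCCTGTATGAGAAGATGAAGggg
SCG5 A_04_P086679: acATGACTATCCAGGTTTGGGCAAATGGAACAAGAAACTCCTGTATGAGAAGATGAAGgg
SCG5 A_04_P086680: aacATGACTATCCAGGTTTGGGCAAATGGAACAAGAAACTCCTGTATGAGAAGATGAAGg
SCG5 A_04_P086681: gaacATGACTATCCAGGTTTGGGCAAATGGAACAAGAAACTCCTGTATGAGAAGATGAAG

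Other members are read by sets like these, by probes that overlap in part or not at all, or by 1 probe alone. The exocyst subunit EXOC1 (minus strand of chromosome 15) has 2 probes that do not overlap, and the vesicle protein SVOP (no position in the array's annotation) and synaptotagmin 13 (minus strand, chr1:184751386-184751445) have 1 probe each. They are shown because SVOP had the largest difference of the tested members and a probe of EXOC1 the smallest p of any member probe. SYT13, which could not be tested, was above background in 0 saline and 3 dexamethasone samples. The first EXOC1 probe lies at chr15:92929166-92929222, and the second matches a span of 2141 bases that starts at position 92929309 and so also lies across a splice junction.
EXOC1 A_04_P075427: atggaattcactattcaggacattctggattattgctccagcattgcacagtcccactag
EXOC1 A_04_P075428: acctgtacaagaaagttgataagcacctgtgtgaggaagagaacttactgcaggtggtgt
SVOP A_04_P040972: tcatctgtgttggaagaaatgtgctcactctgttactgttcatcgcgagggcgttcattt
SYT13 A_04_P066987: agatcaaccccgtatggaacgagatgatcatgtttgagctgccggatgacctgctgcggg

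Both dyes of each of the 4 arrays held samples of 1 group, with odd sample numbers in Cy3 and even numbers in Cy5. Slide 1 held every saline array and slide 2 every dexamethasone array, and the file headers give the slides different scan days. For all values below, the slide, the scan day and the treatment therefore cannot be told apart. The share of spots well above background was 39.1% to 59.7% for saline and 47.7% to 64.3% for dexamethasone, and outlier spots, which were left out, numbered 932 to 3022 and 197 to 509. Values of tested genes and probes are log2 normalised intensities with the dye term removed, while those of untested members carry no dye correction. Differences are dexamethasone minus saline, and adjusted p-values are limma's with Benjamini-Hochberg adjustment over the 10771 genes tested. In whole tissue, fewer cells of a type and less RNA per cell cannot be told apart. The number of arrays limits the precision.

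Of the 55 members, 37 (67.3%) could be tested, against 46.1% of all genes on the array. The test needed a probe that stood well above background in 4 or more of the 8 samples and that gave 3 or more values per group. The other 18 were too dim. No sample was well above background for SYT9, SYT12, LOC100351528 (a synaptotagmin XV-like transcript), SYTL1, SYTL3, SYTL4, SYTL5, the syntaxin STX3, SV2B or a probe described as VAMP7-like. That last probe carries a gene ID that the RefSeq table lists as AMTN, which encodes an enamel protein, so its identity is not settled. All 5 synaptotagmin-like genes, which are known for guiding secretory granules, were among the untested, as was the complexin CPLX4, the only complexin the rule found. In the bar chart of detection CPLX4 stands at 1 sample, SYTL2 at 3 and the other synaptotagmin-like genes at 0, while the other syntaxins and the granins stand at 7 or 8 samples.

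**Figure D1:**
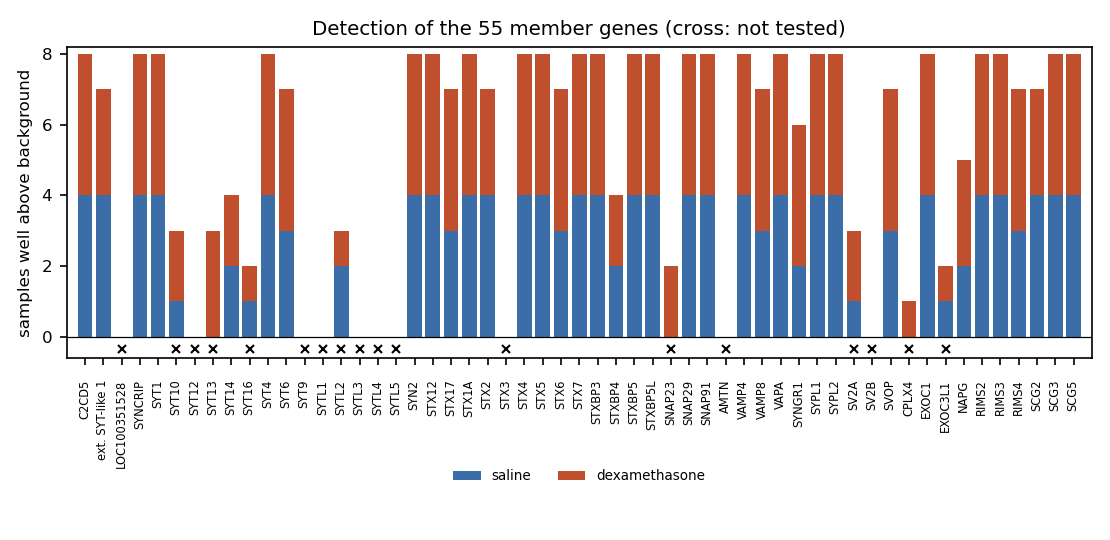
Number of samples (vertical axis, at most 8) in which the best probe of each of the 55 member genes was well above background, stacked by group, with genes in family order. Crosses mark the 18 genes that were not tested, none of which reached 4 samples.

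Among the untested members, SYT13, an atypical synaptotagmin that lacks calcium-binding residues, passed the background threshold in none of the 4 saline samples and in 3 of the 4 given dexamethasone. The log2 values were 7.93, 7.95, 8.10 and 8.09 in saline and 10.57, 9.84, 7.96 and 8.04 with dexamethasone. The first 2 dexamethasone samples, which shared an array, were high, and the other 2 lay within the saline range. The dexamethasone mean of 9.11 was 2.12-fold higher than the saline mean of 8.02, with no test, and it rests on those first 2 samples. The background floor did not change the saline mean. Such a fold was computed only for untested members above background in 0 saline and 3 or more dexamethasone samples, so the opposite case was not looked for. SV2A, a glycoprotein of nearly all synaptic vesicles, was above background in 1 saline and 2 dexamethasone samples. Its values of 7.99 to 8.12 in saline lay below those of 8.16 to 8.53 with dexamethasone. Values of untested members carry no dye correction, so a separation among them is not the measure of overlap used for tested members. No share over all untested genes is given for it. SNAP23, the widely expressed relative of SNAP25, was above background in 0 saline and 2 dexamethasone samples. SYT10, SYT16, SYTL2 and EXOC3L1 reached 2 or 3 samples in all.

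None of the 37 tested members passed an adjusted p of 0.05 (smallest adjusted p = 0.309, limma with Benjamini-Hochberg), where 7 genes of the array, 0.065%, did. At an unadjusted p under 0.05 there were 6 members (16.2%) against 13.9% of all genes tested. Of these, SVOP, STXBP3 and STX12 were higher with dexamethasone, where 5.9% of all genes were, and SYT1, STX2 and an extended synaptotagmin transcript were lower, where 7.95% of all genes were. The groups did not overlap in 7 members (18.9%), against 17.2% of all genes. Of those 7, 4 were higher (7.75% of all genes) and 3 lower (9.46%), and each of these shares is near that of the array as a whole. The count at an unadjusted p under 0.05 was 1 without dexamethasone 1 (6.08% of all genes), 3 without dexamethasone 2 or 3 (10.9% and 8.71%) and 2 without dexamethasone 4 (9.97%). The estimated correlation within arrays was 0.34 to 0.55 in these fits, against 0.24 in the main fit, so they rest on another estimate of the array effect. Without saline 1, 2, 3 or 4, in that order, 3, 3, 2 and 4 members were higher and 2, 3, 4 and 2 lower. Without dexamethasone 4 the groups did not overlap in 11 members, where 23.6% of all genes had no overlap. Differences were above 0 in 19 members and below 0 in 18, where 53.3% of all genes tested lay above 0. The median difference of the members was 0.027 against 0.018 over all genes, and the median SE was 0.15. The interval plot of the tested members shows this even spread around 0.

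**Figure D2:**
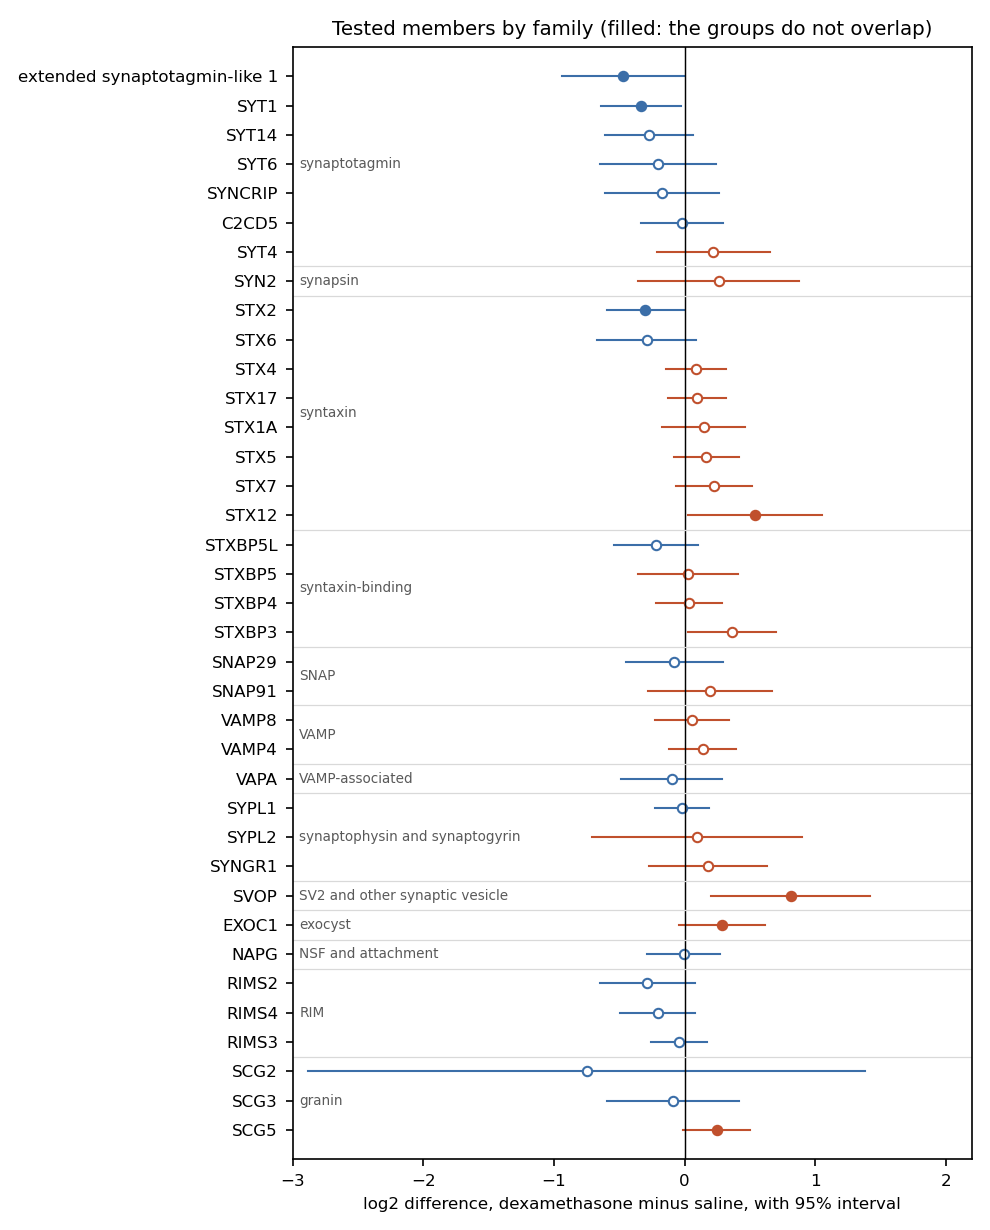
Log2 difference (dexamethasone minus saline, horizontal axis) of the 37 tested members with its 95% interval, grouped by family and coloured by sign. Filled points mark the 7 members whose groups do not overlap, and the interval of SCG2 is far wider than any other.

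Of the 13 genes grouped by the word synaptotagmin, apart from the synaptotagmin-like genes, 7 were tested. Their differences were above 0 in 1 and below 0 in 6, with a median of -0.20. Those below 0 include the extended synaptotagmin, SYNCRIP and C2CD5, described below, so the count is not of calcium sensors alone. SYT1 had values of 12.05, 11.84, 11.60 and 11.64 in saline and of 11.31, 11.50, 11.51 and 11.49 with dexamethasone. Every dexamethasone sample lay below every saline sample, and dexamethasone 1 lay lowest by itself. The means were 11.78 ± 0.21 (SD, n = 4) and 11.45 ± 0.10 (SD, n = 4), a log2 difference of -0.33 (SE 0.13, unadjusted p = 0.0373 and adjusted p = 0.356 by limma). The difference ran from -0.41 to -0.22 with any 1 sample left out and was -0.17 without the array of saline 1 and 2. It was 0.26 when channels were scaled to their 75th percentile instead, where the median of all genes was -0.30.

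The extended synaptotagmin-like transcript ENSOCUT00000017356 belongs to a family that tethers the endoplasmic reticulum to the plasma membrane rather than driving vesicle fusion. Its values were 9.39, 9.11, 9.41 and 9.19 in saline and 9.05, 8.92, 8.31 and 8.94 with dexamethasone. The groups did not overlap, and dexamethasone 3 was the lowest sample. The log2 difference was -0.47 (SE 0.20, unadjusted p = 0.0483 and adjusted p = 0.359 by limma). SYT4, an activity-induced synaptotagmin, was the only gene of this family with a difference above 0. SYT6 and SYT14 were below 0, as were 2 genes that the word synaptotagmin brings in without their being synaptotagmins, the RNA-binding protein SYNCRIP and the trafficking protein C2CD5, which the array describes as synaptotagmin VII-like.

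Of the 9 syntaxins, which form the plasma membrane or endosomal side of SNARE bundles, 8 were tested, with 6 differences above 0, 2 below 0 and a median of 0.12. STX12, a syntaxin of recycling endosomes, had values of 11.22, 11.55 and 10.84 in saline 1 to 3, with saline 4 left out as an outlier spot, and of 11.98, 11.56, 11.73 and 11.58 with dexamethasone. The lowest dexamethasone sample lay just above the highest saline sample, so the gap between the groups was narrow, and it does not include saline 4. For STX12 the log2 difference was 0.54 (SE 0.22, unadjusted p = 0.0423 and adjusted p = 0.357 by limma). With outlier spots kept it was 0.38 (adjusted p = 0.482 by limma).

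STX2, a plasma membrane syntaxin of many cell types, had values of 8.79, 8.76, 9.13 and 9.00 in saline and 8.43, 8.67, 8.72 and 8.66 with dexamethasone. The groups did not overlap, and the saline samples of the second array were the highest. The fitted difference was -0.30 on the log2 scale (SE 0.13, unadjusted p = 0.0472 and adjusted p = 0.359 by limma). Its other tested probes gave -0.12 and 0.14, so the probes of STX2 did not share a direction.

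STX1A, the neuronal syntaxin of fast release, had values of 10.87, 10.77, 10.34 and 10.59 in saline and 10.80, 10.81, 10.85 and 10.68 with dexamethasone. These groups overlapped, since only saline 3 and 4 lay below all dexamethasone samples. The log2 difference was 0.15 (SE 0.14, adjusted p = 0.627 by limma). The sign turned to -0.034 without the array of saline 3 and 4. Without the array of saline 1 and 2 the difference was 0.32 (adjusted p = 0.0467 by limma), in a fit that called 2174 of 10110 genes. The endosomal and Golgi syntaxins STX5, STX6, STX7 and STX17 and the plasma membrane syntaxin STX4 all gave adjusted p-values of at least 0.413.

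**Figure D3:**
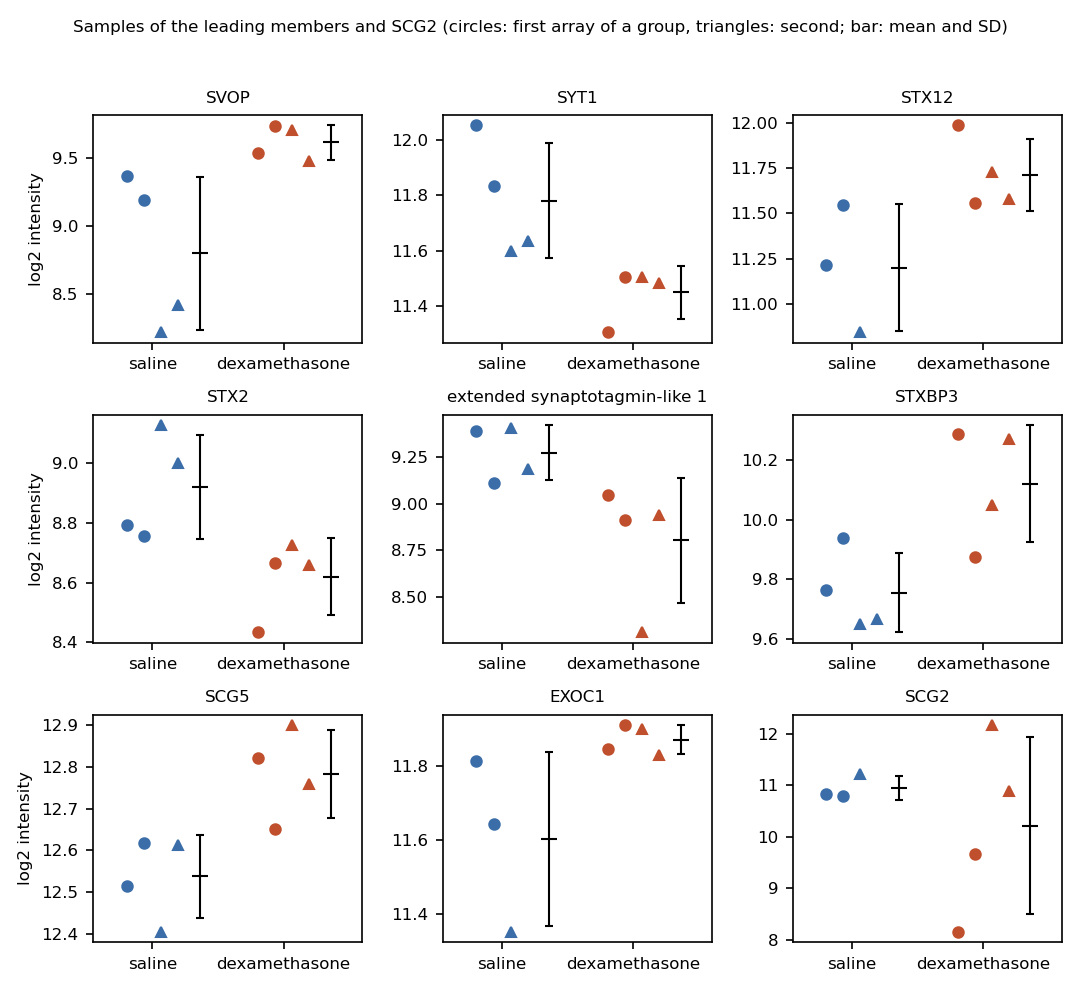
Log2 normalised intensity of each sample for 9 members, with saline in blue and dexamethasone in red, circles for the first array of a group (samples 1 and 2) and triangles for the second (samples 3 and 4), and bars for the mean and SD. The saline samples of SVOP split by array, and the dexamethasone samples of SCG2 run from 8.15 to 12.17.

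Of the SNARE partners of the syntaxins and the other genes named after SNAP or VAMP proteins, 5 were tested. None had an unadjusted p under 0.05 by the probe that stands for the gene. VAMP4, a vesicle SNARE of the Golgi and endosomes, which the array describes as VAMP3-like, had the smallest p of its family, with 10.59 ± 0.12 (SD, n = 4) in saline, 10.73 ± 0.10 (SD, n = 4) with dexamethasone and a log2 difference of 0.14 (SE 0.11, adjusted p = 0.557 by limma). VAMP8, a SNARE of lysosomal and secretory granule fusion, and SNAP29, which acts in endosomal and autophagic fusion, lay within 0.08 of 0 by those probes. All probes ran from -0.093 to 0.24 for VAMP8 and from -0.27 to 0.081 for SNAP29. The SNAP29 probe at -0.27 had an unadjusted p of 0.0311, and a VAMP4 probe at 0.34 had 0.0334 (adjusted p = 0.383 and 0.388, limma over probes). SNAP91, which despite its name is a clathrin assembly protein of vesicle endocytosis, had values of 9.37 ± 0.26 and 9.57 ± 0.25 (SD, n = 4 each) and a log2 difference of 0.20 (SE 0.21, adjusted p = 0.66 by limma). VAPA, an endoplasmic reticulum protein that binds VAMPs, had a log2 difference of -0.097 (SE 0.17, adjusted p = 0.799 by limma). None of these differences passed the test.

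Several well-known parts of the machinery carry other names on the array and so fall outside the word rule. Of 30 core genes listed for this work, 10 were members, 6 more were tested under older names, and 14, among them SNAP25, SYP, SYN1 and CHGA, were not matched to a probe here. VAMP2 (on the array as synaptobrevin-2), the main vesicle SNARE of neurons, had values of 9.56, 9.36, 9.15 and 9.35 in saline and 9.30, 9.45, 9.59 and 9.43 with dexamethasone. The groups overlapped, with a log2 difference of 0.090 (SE 0.13, adjusted p = 0.754 by limma). NSF, the ATPase that recycles SNARE bundles, had 8.74 ± 0.28 in saline and 9.09 ± 0.17 with dexamethasone (SD, n = 4 each), with overlapping groups and a log2 difference of 0.35 (SE 0.18, adjusted p = 0.401 by limma). NAPG, an attachment protein of NSF, lay at 8.37 ± 0.19 and 8.36 ± 0.07 (SD, n = 4 each), a log2 difference of -0.0080 with a 95% interval from -0.29 to 0.27.

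The syntaxin-binding proteins hold or clamp syntaxins, and all 4 were tested, with 3 differences above 0 and 1 below. STXBP3 (Munc18c), which controls vesicle fusion through syntaxin 4 in many tissues, had values of 9.76, 9.94, 9.65 and 9.67 in saline and 10.29, 9.88, 10.05 and 10.27 with dexamethasone. Dexamethasone 2 lay below saline 2, so the groups overlapped at that sample only. The log2 difference was 0.36 (SE 0.15, unadjusted p = 0.0365 and adjusted p = 0.356 by limma), and all 5 of its probes were higher with dexamethasone, by 0.038 to 0.36. Without the array of saline 1 and 2 it was 0.46 (adjusted p = 0.0359 by limma), in a fit that called 2174 of 10110 genes. STXBP5L, a tomosyn that takes up SNAREs in inactive bundles, was lower by all 5 of its probes, from -0.80 to -0.22, none at an unadjusted p under 0.05. These probes share 53 bases, so they are close to 1 measurement. The probe at -0.80 had an SE of 0.85, with dexamethasone 3 at 7.17 against 9.99 to 10.82 in the other dexamethasone samples.

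Among the proteins of the vesicle membrane, SVOP, a transporter-like relative of SV2, had the largest difference and the smallest p of the 37 tested members. Its values were 9.36, 9.19, 8.22 and 8.42 in saline and 9.53, 9.73, 9.71 and 9.48 with dexamethasone. All dexamethasone samples lay above all saline samples, but the saline values fell into a higher array (samples 1 and 2) and a lower array (samples 3 and 4). The means were 8.80 ± 0.56 and 9.61 ± 0.13 (SD, n = 4 each), a log2 difference of 0.81 (SE 0.27), or 1.76-fold (unadjusted p = 0.0149 and adjusted p = 0.309 by limma). SVOP was well above background in 3 of 4 saline samples. Against the array of saline 3 and 4 alone the difference was 1.29 (adjusted p = 0.00204 by limma), in a fit that called 2174 of 10110 genes. Against that of saline 1 and 2 alone it was 0.34. With no normalisation between arrays it was -0.13, where the median of all genes was -0.64.

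The vesicle tether SYN2, the only synapsin found, had 12.03 ± 0.37 in saline and 12.29 ± 0.35 with dexamethasone (SD, n = 4 each), a log2 difference of 0.26 (SE 0.27, adjusted p = 0.652 by limma). SYNGR1, a synaptogyrin of synaptic vesicles, had a log2 difference of 0.18 (SE 0.20, adjusted p = 0.666 by limma) and was well above background in 2 of 4 saline samples. In both genes the spread within each group exceeded the difference between groups. The synaptophysin-like proteins SYPL1 and SYPL2 lay within 0.10 of 0.

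The 3 tested RIM genes, scaffolds that recruit calcium channels and priming factors to the active zone, all lay below 0 with a median of -0.21. RIMS3 was only -0.046 (SE 0.093, adjusted p = 0.832 by limma). RIMS2 had values of 12.66, 12.50, 12.17 and 12.52 in saline and 12.03, 11.98, 12.42 and 12.27 with dexamethasone. Dexamethasone 1 and 2, on the same array, lay below every saline sample, while dexamethasone 3 and 4 lay inside the saline range. The log2 difference was -0.29 (SE 0.16, adjusted p = 0.428 by limma), and its 4 probes gave -0.30 to -0.22. Without the array of dexamethasone 1 and 2 it was -0.12, and with 75th percentile scaling it was 0.37, where the median of all genes was -0.30.

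EXOC1, a subunit of the exocyst, had values of 11.82, 11.64 and 11.35 in saline 1 to 3, with saline 4 left out as an outlier spot, and of 11.85, 11.91, 11.90 and 11.83 with dexamethasone. The groups did not overlap, although the gap between saline 1 and the lowest dexamethasone sample was narrow. The fitted difference was 0.29 on the log2 scale (SE 0.14, adjusted p = 0.392 by limma). Its second probe, A_04_P075428, had all values, 10.79, 10.87, 10.92 and 11.02 in saline and 11.57, 11.55, 11.35 and 11.19 with dexamethasone. These groups did not overlap either, and the difference of 0.51 (SE 0.12) had an unadjusted p of 0.00276 and an adjusted p of 0.287 (limma, adjusted over 20704 probes).

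The other exocyst subunits, which the array names after yeast Sec proteins and which are not members by the rule, gave no shared direction. EXOC4 had a log2 difference of 0.32 (SE 0.14, unadjusted p = 0.0562 and adjusted p = 0.364 by limma). EXOC3 had 0.13 (SE 0.10, adjusted p = 0.548 by limma), with groups that did not overlap in its 7 values, and EXOC2 had -0.034 (SE 0.11, adjusted p = 0.899 by limma). EXOC6 had -0.32 (SE 0.16, unadjusted p = 0.0783 and adjusted p = 0.393 by limma), with dexamethasone 1 the lowest sample at 9.66 against 10.26 to 10.53 in saline.

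Granins are the cargo side of the machinery. SCG5 had values of 12.52, 12.62, 12.40 and 12.61 in saline and 12.82, 12.65, 12.90 and 12.76 with dexamethasone. The groups did not overlap, with dexamethasone 2 closest to the saline samples. The log2 difference was 0.25 (SE 0.11, unadjusted p = 0.0569 and adjusted p = 0.366 by limma). The 3 other tested probes of its set gave 0.34, 0.43 and 0.61, all higher with dexamethasone and all at an unadjusted p under 0.05, none of them past an adjusted p of 0.05 (smallest adjusted p = 0.34, limma over probes). The brightest probe, which stands for the gene, thus gave the smallest of the 4 differences.

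PCSK2, the prohormone convertase that needs SCG5 for its activation, is not a member but stands in the list of dense-core genes. Its values were 9.10, 9.25, 9.08 and 9.31 in saline and 9.84, 9.90, 9.82 and 9.38 with dexamethasone. The groups did not overlap, and the log2 difference was 0.55 (SE 0.16, unadjusted p = 0.00762 and adjusted p = 0.291 by limma). It was -0.0015 with no normalisation between arrays, where the median of all genes was -0.64.

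SCG2, the precursor of secretoneurin, was the most scattered member. Its values were 10.84, 10.79 and 11.21 in saline 1 to 3, with saline 4 left out as an outlier spot, and 8.15, 9.67, 12.17 and 10.88 with dexamethasone. The dexamethasone samples lay on both sides of the saline samples, and those of the first array were the lowest. The fitted difference was -0.75 on the log2 scale with an SE of 0.91 (adjusted p = 0.702 by limma), and it became 0.69 without the array of dexamethasone 1 and 2 and -2.18 without that of dexamethasone 3 and 4. SCG3, which sorts granins into granules, had 11.45 ± 0.29 and 11.37 ± 0.31 (SD, n = 4 each) and a log2 difference of -0.087 (SE 0.22, adjusted p = 0.865 by limma). No chromogranin probe was found by its name.

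The probes of a gene give a measure of how far a difference depends on the oligonucleotide. Of 21 members with at least 2 tested probes, 10 had all probes on the same side of 0. In 7 members the probes shared at least 40 bases, and their differences still spanned 0.18 to 0.58 on the log2 scale, with a median span of 0.35. For SYT1 the 5 probes shown above gave -0.33, -0.13, -0.29, -0.14 and -0.0095 in the order printed. They all lay below 0, and A_04_P058517 and A_04_P058519 had an unadjusted p under 0.05, although the probes differ by at most 7 bases in position. Probes of STX5 ran from -0.24 to 0.20 and those of VAMP4 from -0.082 to 0.34, across 0 in each. Since probes of a gene read the same samples, they are not replicates of the treatment.

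**Figure D4:**
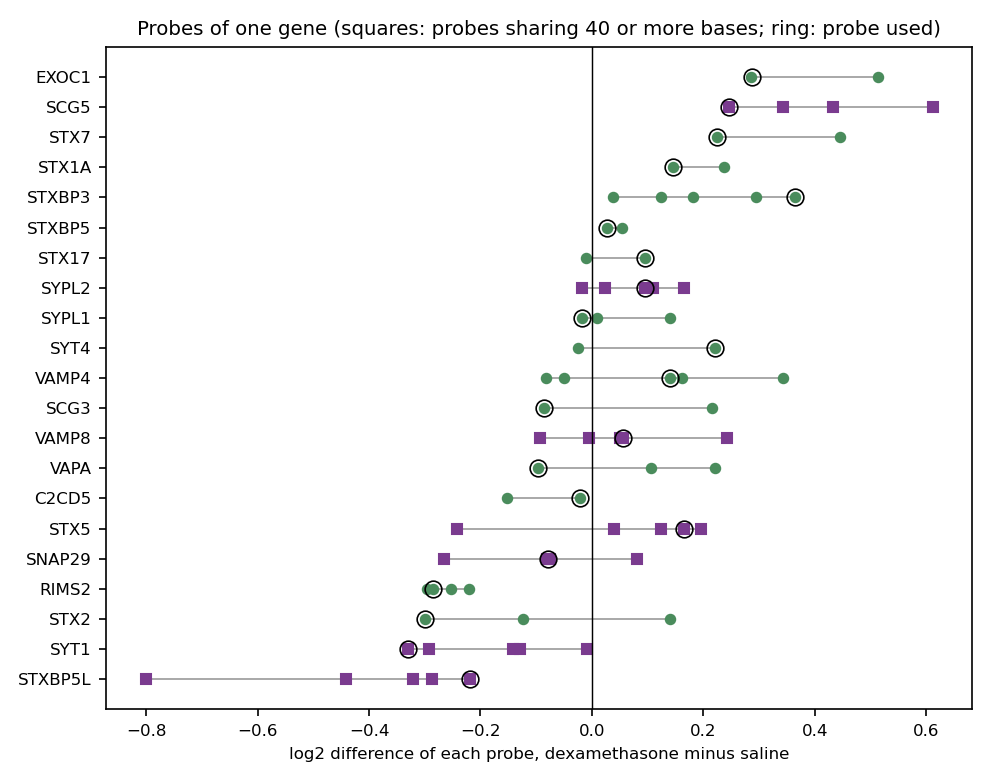
Log2 difference (horizontal axis) of every tested probe of the 21 members with at least 2 tested probes, with rings around the probe that stands for the gene. Squares are sets whose probes share 40 or more bases, and the grey line spans the probes of a gene, from 0.18 to 0.58 for those sets.

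The steps around fusion were read from 4 lists of other genes. For active zone and priming 3 of 23 genes were tested and none had an unadjusted p under 0.05. The priming factors UNC13B and UNC13C had log2 differences of 0.16 (SE 0.14) and 0.23 (SE 0.25). For endocytosis and recycling 16 of 33 genes were tested, with 1 higher and 2 lower at an unadjusted p under 0.05 and a median of 0.15. SYNJ2, a phosphoinositide phosphatase that helps uncoat vesicles, had a log2 difference of -0.42 (SE 0.16, unadjusted p = 0.0292 and adjusted p = 0.341 by limma), and EPN2, an endocytic adaptor, had -0.26 (SE 0.10, unadjusted p = 0.0381 and adjusted p = 0.356 by limma). In both, the groups did not overlap. SH3GL2 (endophilin A1), which bends membranes and recruits synaptojanin, was the gene on the higher side, with a log2 difference of 0.51 (unadjusted p = 0.0404 and adjusted p = 0.357 by limma) and overlapping groups.

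For vesicle loading 9 of 25 genes were tested, with 1 lower at an unadjusted p under 0.05 and a median of 0.17. SLC17A9, the vesicular nucleotide transporter, had a log2 difference of -0.25 (SE 0.10, unadjusted p = 0.0413 and adjusted p = 0.357 by limma) with no overlap, and ATP6AP2, an accessory protein of the vesicular proton pump, had 0.37 (SE 0.19, adjusted p = 0.409 by limma). For dense-core cargo and its processing 5 of 19 genes were tested, PCSK2 alone at an unadjusted p under 0.05, with a median of 0.21. The peptide hormone CRH had a log2 difference of 0.22 (SE 0.15, adjusted p = 0.51 by limma). No gene of the 4 lists passed an adjusted p of 0.05, and over all genes 13.9% had an unadjusted p under 0.05, with a median of 0.018. For active zone, endocytosis, loading and dense-core cargo, 3, 12, 8 and 5 genes lay above 0 and 0, 4, 1 and 0 below. Of all genes tested, 53.3% lay above 0.

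The tissue label was checked against neuronal markers outside the vesicle machinery. All 13 of the 20 that had a probe were well above background in at least 4 samples, among them MAP2, DCX and STMN2. Of the 9 that could be tested, none had an unadjusted p under 0.05, and their median difference was 0.078. Over the 8 with all values, the lowest and highest mean levels were 12.57 and 12.77 in saline and 12.62 and 12.75 with dexamethasone, so the groups overlapped. Among markers of other cells, 4 of 5 tested oligodendrocyte genes had an unadjusted p under 0.05, against 13.9% of all genes tested. GJB1 and CLDN11 were lower and QDPR and MAL higher. The groups did not overlap in 3 of these 5 genes, against 17.2% of all genes. Their mean level lay at 10.39 to 10.52 for saline against 10.28 to 10.58 for dexamethasone. MOBP, OPALIN and SOX10 reached no more than 3 samples, as did GFAP of the 11 astrocyte markers with a probe. Of 10 tested astrocyte genes, ATP1B2 (-0.52) and APOE (0.46) had an unadjusted p under 0.05 (20%, against 13.9% of all genes). The groups did not overlap in 1 of the 10. The mean level of the 8 with all values lay at 9.83 to 9.94 for saline against 9.83 to 10.02 for dexamethasone. Of 4 tested endothelial genes, ABCB1, a drug efflux pump, had a log2 difference of 0.73 (unadjusted p = 0.00101 and adjusted p = 0.17 by limma), while PECAM1, FLT1 and KDR were above background in 0 samples. None of the 3 tested genes of microglia and macrophages had an unadjusted p under 0.05.

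Pituitary and other neuroendocrine cells also make granins. Their hormone genes POMC, LHB and PRL were well above background in all 8 samples, and CGA in 2. The 3 tested genes of that list had no unadjusted p under 0.05, with log2 differences of -0.23 for LHB, whose groups did not overlap, 0.099 for POMC and 0.038 for PITX1. The mean level of POMC and PITX1, which had all values, lay at 10.73 to 10.83 for saline against 10.66 to 11.04 for dexamethasone. No gene of these marker lists passed an adjusted p of 0.05. The part of these cells in the members' values was not tested.

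Saline samples of the members differed more by array than dexamethasone samples did. Over the 34 members with all 8 values, the median gap between the 2 arrays of a group was 0.24 in saline and 0.09 with dexamethasone, while over all genes it was 0.17 and 0.09. The median gap between the 2 samples of an array was 0.13 and 0.14. Leaving out the array of saline 1 and 2 gave 5 members past an adjusted p of 0.05 (SVOP, SYT14, STX2, STXBP3 and STX1A), in a fit that called 2174 genes of the array. Leaving out that of saline 3 and 4 gave 0 members and 227 genes. The estimated correlation within arrays was -0.31 and -0.38 in these fits, against 0.24 in the main fit. Their p-values thus rest on another estimate of the array effect and cannot be set beside those of the main fit. The plot of processing settings sets the members beside all genes under each alternative.

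**Figure D5:**
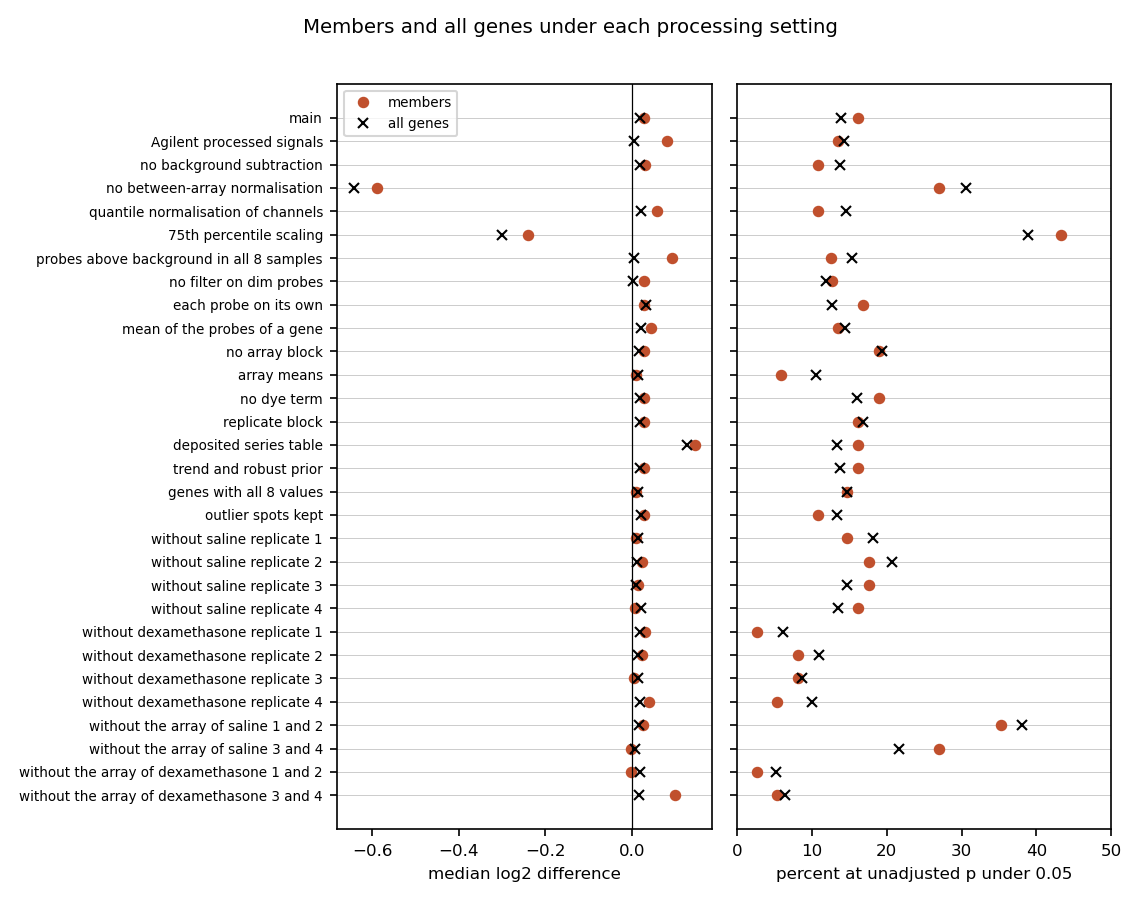
Median log2 difference (left) and percent of genes at an unadjusted p under 0.05 (right) for the members (circles) and for all genes tested (crosses) under the main processing and each alternative. Both medians fall below 0 with no normalisation between arrays and with 75th percentile scaling, and both percentages are highest without the array of saline 1 and 2 and with 75th percentile scaling.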

How the data were processed

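Forebrain RNA of 8 samples was read on Agilent 2-colour arrays of design 020908. The authors deposited scanner files with spot intensity for both dyes. Agilent Feature Extraction was version 11.0.1.1 per the file headers and 10.7.3.1 in the submitters' processing notes. The signal in the deposited series table matched the median minus background median intensity over a constant for the column, with a median of 1 in every column. Its direction and scale are known and no other centring was found.

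Intensities were here corrected with normexp at an offset of 50, then loess was applied within arrays and Aquantile between them, and the channels were split into log2 values. Spots marked as outliers were dropped. A probe entered where 4 or more of 8 samples were well above background, the brightest such probe by mean represented its gene, and 3 or more values were required per group. limma 3.58.1 in R 4.3.3 compared the groups, with a dye term and the array as random block (consensus correlation 0.24). The Benjamini-Hochberg adjustment ran over 10771 genes. The 95% intervals use the SE and t quantile of that fit. The fit's calls were tested on simulated data.

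Of the 125 probes, 114 were named through a gene ID and 10 through a symbol in the RefSeq table of mOryCun1.1, and 1 kept the array's identifier. Coordinates are those of the array files (oryCun2). Members, lists and tests were chosen with earlier results of these data known. Members were named with values if at an unadjusted p under 0.05, if the smallest p of their family, or if on a list of core genes, with the 2 smallest p-values of each other list. Values of SYT13, SV2A, SNAP23, SYT10, SYTL5, STXBP5L, SH3GL2, single marker genes and single probes were added after they were seen. Replicate numbers were not taken as pairs of samples. Alternatives covered background, normalisation, filters, the probe rule, blocks, the deposited table and each sample or array left out.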

Additional observations from a re-analysis of the deposited data

Results flagged for a closer look

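In groups of 4 samples, a sample was singled out where its gap to the nearest other sample was an unusually large share of the whole range of its group (Dixon's test at the 95% level). Of 71 groups of the tested members, 6 held such a sample. The nominal rate of about 1 in 20 assumes independent values. Here the samples share arrays in pairs and all genes read the same samples, so that rate gives no measure of excess. SYT1 was 11.31 in dexamethasone 1 against 11.49 to 11.51 in the other dexamethasone samples, all below saline. SNAP29 was 9.54 in dexamethasone 1 against 9.62 to 9.63. VAMP8 was singled out in both groups, at 8.47 in saline 1 against 8.72 to 8.74 and at 8.52 in dexamethasone 2 against 8.78. SCG3 was 11.02 in saline 3 against 11.56 to 11.65 in the other saline samples, and without that sample its difference was -0.26. SYPL1 was 9.04 in saline 1 against 8.90 to 8.92.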

How the results depend on the processing

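The number of members past an adjusted p of 0.05 was 0 under all alternatives but 75th percentile scaling, which gave 7 of 37 (2213 of 10661 genes of the array, 2165 of them lower), and the fit without the array of saline 1 and 2, which gave 5 of 34 (2174 of 10110 genes). The number of arrays limits every value. The count at an unadjusted p under 0.05, the count whose groups do not overlap and the median difference, in that order below, also moved, with the share of all genes in that fit in parentheses. With 75th percentile scaling, which moved the median of all genes to -0.30, they were 16 (38.9%), 23 (55.4%) and -0.24, and 11 other genes of the vesicle cycle had an unadjusted p under 0.05 in place of 5. Of the genes of the array at an unadjusted p under 0.05, 12.6% were then higher, against 42.6% in the main fit. With no normalisation between arrays (median of all genes -0.64) they were 10 (30.6%), 18 (50.5%) and -0.59, and 0.030% of such genes were higher. The processed signals gave a median of 0.080 and 8 other genes, and the deposited table a median of 0.14 (all genes 0.13), with 66.4% higher. Probes above background in all samples gave 3 (15.4%), 4 (18.3%) and 0.091 over 24 members. Keeping outlier spots left 2 members higher and 2 lower at an unadjusted p under 0.05 (13.3% of all genes). Each probe on its own gave 15 (12.7%) and 21 (16.2%) of 89 probes, and array means gave 2 (10.5%) and 13 (48.8%) of 34 members. Without the array of saline 1 and 2 they were 12 (38.1%) and 16 (49.2%), without that of saline 3 and 4 they were 10 (21.6%) and 14 (32%), without that of dexamethasone 1 and 2 they were 1 (5.2%) and 13 (35.1%), and without that of dexamethasone 3 and 4 they were 2 (6.4%) and 15 (33.2%) with a median of 0.10. With 1 sample left out, the count at an unadjusted p under 0.05 ran from 1 to 6 (6.08% to 20.7% of all genes) and the count without overlap from 6 to 11 (18.8% to 28.8%). The cause of these shifts was not tested.

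Deviations of same-numbered samples had correlations from -0.27 to -0.10. Such samples share a dye, and removing the dye term pushes correlations between samples of 1 dye below 0. Differently numbered samples of the same dye also gave -0.18 to -0.066. The check therefore cannot show whether the numbers pair the samples, and they were not taken as pairs. With the replicate number as a block, 0 members passed the adjusted threshold, 6 had an unadjusted p under 0.05 (16.8% of all genes), 5 had no overlap (13.3%), and the median was 0.027.

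Of 892 values of single genes under the alternatives, 822 kept their sign and their side of the threshold, 13 passed it and 57 changed sign. With no normalisation between arrays the differences that changed sign were those of SVOP (-0.13), RIMS2 (0.024), SNAP91 (-0.31), SYNGR1 (-0.97), VAPA (0.14), SCG3 (0.12), UNC13B (-0.82), UNC13C (-1.34), PCSK2 (-0.0015), CRH (-0.92), VAMP2 (-0.53), NSF (-0.70), EXOC3 (-0.049) and EXOC4 (-0.80). With 75th percentile scaling they were those of SYT1 (0.26), RIMS2 (0.37), SYNGR1 (-0.62), VAPA (0.48), SCG3 (0.47), UNC13B (-0.47), UNC13C (-0.99), CRH (-0.57), VAMP2 (-0.19), NSF (-0.35) and EXOC4 (-0.45). Without the array of saline 1 and 2 they were SYNGR1 (-0.031), SCG3 (0.076), NAPG (0.13) and EXOC2 (0.081), and without that of saline 3 and 4 STX1A (-0.034), SYN2 (-0.0033), CRH (-0.034) and VAMP2 (-0.016). SCG2 was 0.69 without the array of dexamethasone 1 and 2, and SCG3 0.15 without that of dexamethasone 3 and 4. The processed signals gave 0.10 for VAPA, 0.25 for NAPG, -0.18 for VAMP2 and 0.095 for EXOC2, the mean of a gene's probes gave 0.14 for VAPA, 0.064 for SCG3, -0.023 for UNC13B and 0.023 for EXOC6, and the deposited table gave 0.16 for VAPA and 0.060 for SCG3. NAPG was 0.053 without background subtraction and 0.028 with quantile normalisation. With 1 sample left out SCG2 ran from -1.62 to 0.11, UNC13C from -0.021 to 0.49, VAPA from -0.24 to 0.022, SCG3 from -0.26 to 0.019, NAPG from -0.098 to 0.080 and EXOC2 from -0.097 to 0.044.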
